A study of Mus musculus with 9 samples.

Results

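The genes described here are 9 genes of epidermal growth factor signalling, chosen by symbol from the 54838 genes of the deposited matrix. They comprise 5 ligand genes (Areg, Ereg, Btc, Hbegf and Nrg1), 3 receptor genes (Egfr, Erbb2 and Erbb3) and the sheddase gene Adam17. RNA sequencing was done on mouse cells labelled as corona radiata granulosa, the cumulus cells next to the oocyte, from adults given PMSG and hCG. PMSG acts like follicle-stimulating hormone and hCG like luteinizing hormone. The treatment label also carries the term J4, which the sources used here do not explain. The transgenic mice had the knockout of both liver X receptors (LXR) and carried the transgene TG-AMH-LXRb, the LXR DKO mice had the same knockout without a transgene, and the WT mice were wild type. Each genotype had 3 libraries. What the transgene consists of, which cells express it and which parts of the receptor genes were deleted are not stated in the sources used here. The labels do not say whether the libraries came from separate animals, so each p-value reflects the spread among these libraries alone, and that spread may be technical. Of the 9 genes, 6 reached 1 RPKM (reads per kilobase of gene, scaled to library size) in at least 3 of 9 libraries and were tested. Areg, Hbegf and Nrg1 did not.

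In ovulatory follicles the surge of luteinizing hormone transiently induces amphiregulin, epiregulin and betacellulin in granulosa cells. These ligands are made as membrane-anchored precursors, and the metalloprotease ADAM17 releases them. They bind the receptor EGFR, which activates the RAS-ERK cascade in cumulus cells, and cumulus expansion and oocyte maturation follow. ERBB2 has no known ligand of its own and works as a dimer partner, while ERBB3 binds neuregulins and has weak kinase activity.

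The number of reads in genes, worked back from the RPKM values, lay between 29859221 and 44162958 per library. Of the deleted receptor genes, Nr1h2 (LXR beta) was at 4.83 to 6.70 RPKM in transgenic, 2.85 to 3.57 RPKM in LXR DKO and 39.7 to 45.7 RPKM in WT. Nr1h3 (LXR alpha) was at 0.395 to 0.819 RPKM in transgenic, 0.713 to 1.081 RPKM in LXR DKO and 3.495 to 5.72 RPKM in WT, and both genes were lower in every transgenic and LXR DKO library than in WT. All 9 granulosa markers, such as Foxl2 and Fshr, were above 0 in every library, with a score (the mean log2(RPKM + 1) of the list) of 3.73 to 4.38. Their summed level was 389 to 449 RPKM in transgenic, 323 to 551 RPKM in LXR DKO and 570 to 626 RPKM in WT, without overlap with WT. By score, LXR DKO 1 (4.29) lay above WT 3 (4.08). Of the 8 tested, Hsd17b1, a steroid dehydrogenase gene, fell in transgenic and LXR DKO against WT (limma adjusted p = 0.0229 and 0.00900). The others did not pass, and 6.72% and 7.12% of all tested genes fell in these comparisons. RNA of other cells was also present. The oocyte score was 5.31 in WT 1 and 3.31 in LXR DKO 1, against at most 1.43 elsewhere, and the erythroid score was 8.44 in WT 3. The score of 12 oviduct and surface epithelium markers was 4.97 to 5.51 in transgenic, 3.82 to 4.59 in LXR DKO, 3.15 and 2.94 in WT 1 and WT 2, and 5.47 in WT 3.

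Btc fell and Erbb2 rose in both transgenic and LXR DKO relative to WT. Erbb3 rose in transgenic relative to WT. In LXR DKO against WT, 2 of the 6 tested genes passed the test, 1 higher and 1 lower, where 10.6% of all 16422 tested genes passed (3.47% higher, 7.12% lower). In transgenic against WT it was 3 of 6, 2 higher and 1 lower, where 11.9% of all genes passed (5.15% higher, 6.72% lower). None of the 6 passed in transgenic against LXR DKO (limma, with 3 of 6 at an unadjusted p under 0.05 and 0 by voom), where 0.116% of all genes passed (0.0548% higher, 0.0609% lower). The threshold was an adjusted p of 0.05 (limma on log2(RPKM + 1), Benjamini-Hochberg over all tested genes), and each log2 fold change carries its standard error after the ± sign. The comparisons of transgenic and of LXR DKO with WT share the WT libraries. The median log2 fold change of the 6 was 0.30 in LXR DKO against WT, -0.13 in transgenic against LXR DKO and 0.11 in transgenic against WT, beside 0.017, 0.013 and 0.015 over all tested genes.

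**Figure D1:**
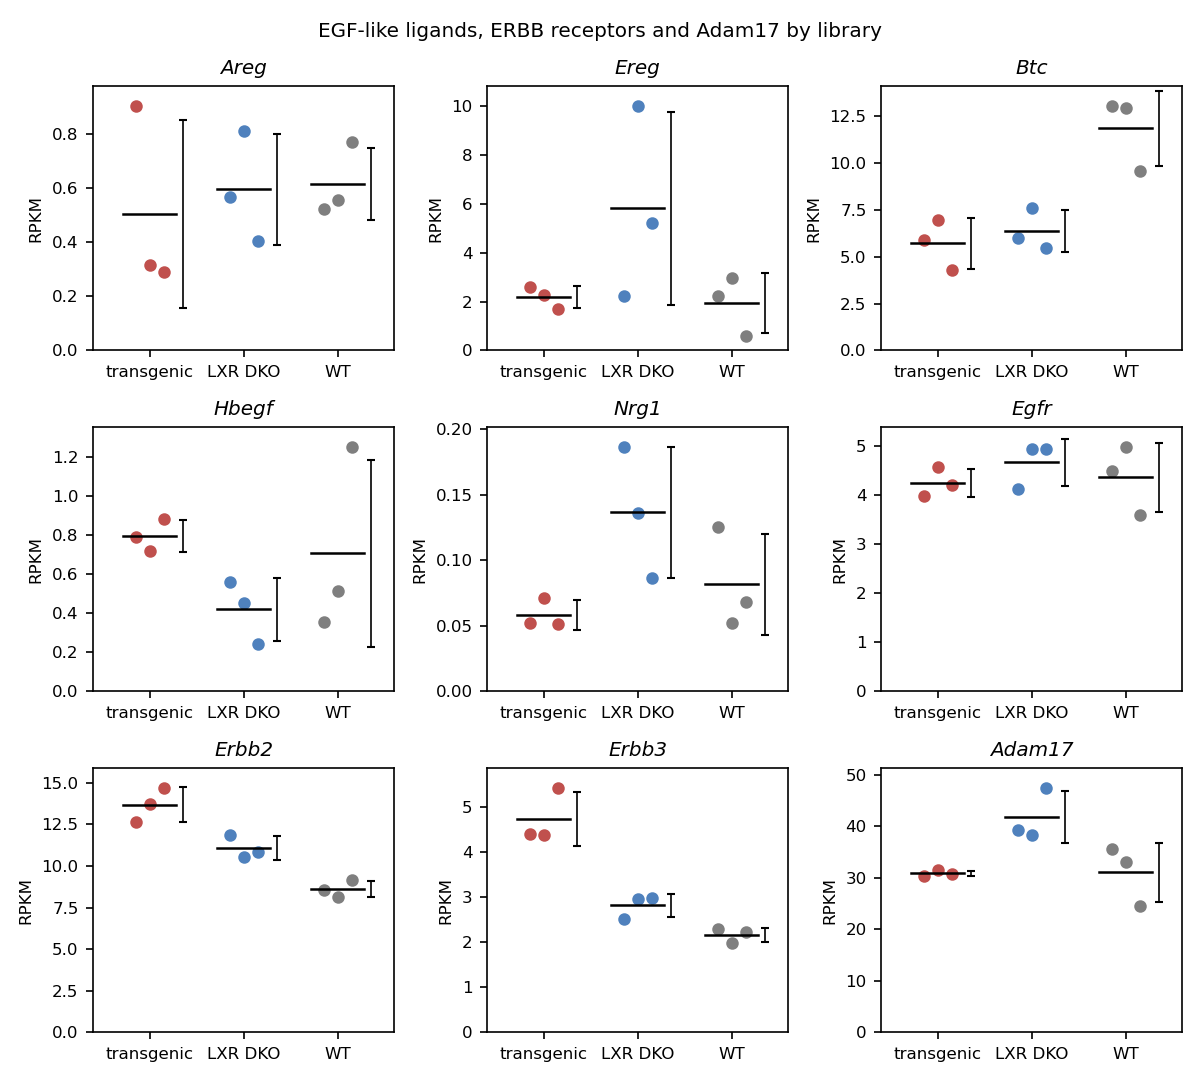
RPKM of the 9 genes in each library (points), with the genotype mean (line) and SD (bar) of 3 libraries, on axes that start at 0. The WT points of Btc lie at 9.56 to 13.1 RPKM, above the 6 other points, and Erbb2 and Erbb3 show 3 separate groups of points.

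Btc encodes betacellulin, a ligand of EGFR and of the related receptor ERBB4 (ENSMUSG00000082361, mm10 chromosome 5, 91357261 to 91402994, minus strand). It measured 5.89, 6.95 and 4.28 RPKM in transgenic, 6.02, 7.60 and 5.48 in LXR DKO and 13.1, 12.9 and 9.56 RPKM in WT (libraries 1, 2 and 3 in this order, as throughout). Every WT library was above every transgenic and LXR DKO library, while transgenic and LXR DKO overlapped. The means were 5.71 ± 1.34 RPKM in transgenic, 6.37 ± 1.10 in LXR DKO and 11.8 ± 1.98 in WT (SD, n = 3 each), so that the mean in transgenic was 0.482 and that in LXR DKO 0.537 of the WT mean. The log2 fold change was -0.95 ± 0.18 in transgenic against WT (limma adjusted p = 0.0157) and -0.80 ± 0.18 in LXR DKO against WT (limma adjusted p = 0.0274). Transgenic minus LXR DKO was -0.15 ± 0.18 (95% interval -0.56 to 0.27, limma adjusted p = 0.889). In these bulk samples fewer cells of a type and less RNA per cell cannot be told apart. WT 1, with an oocyte score of 5.31, and WT 2, with one of 0.123, had Btc levels of 13.1 and 12.9 RPKM. The summed granulosa markers were, like Btc, higher in every WT library than in every other library. Their score was not, at 4.29 in LXR DKO 1 and 4.08 in WT 3. Of the 8 tested markers, 3 had positive log2 fold changes in each comparison with WT. The part of granulosa cells in the Btc fall was not tested.

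The Btc calls rested on few libraries. The call in LXR DKO depended on WT 1, LXR DKO 1, WT 2 and LXR DKO 3 (limma adjusted p = 0.0829, 0.0580, 0.0820 and 0.108 when each was left out) and that in transgenic without transgenic 3, WT 1 or WT 2 (limma adjusted p = 0.0514, 0.0529 and 0.0574), while the estimates ranged from -0.94 to -0.71 in LXR DKO and from -1.08 to -0.78 in transgenic over the 9 omissions. With WT 1 and LXR DKO 1, the libraries with the highest oocyte scores, both left out, the adjusted p was 0.130 in LXR DKO and 0.0629 in transgenic (limma). With no filter on low values that of LXR DKO was 0.0724 (limma).

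Ereg encodes epiregulin (ENSMUSG00000029377, chromosome 5, 91074622 to 91093646, plus strand). It measured 2.61, 2.28 and 1.70 RPKM in transgenic, 2.21, 10.01 and 5.20 in LXR DKO and 2.24, 2.96 and 0.597 RPKM in WT. LXR DKO 2 and LXR DKO 3 were above all other libraries, LXR DKO 1 lay among the WT libraries, and WT 3 was lowest. The difference of LXR DKO from WT was 1.14 ± 0.45 and did not pass (limma adjusted p = 0.150). It passed only without LXR DKO 1 among the 9 omissions (1.59, limma adjusted p = 0.0422), and was 0.70 without LXR DKO 2. Transgenic minus LXR DKO was -0.93 ± 0.45 (limma adjusted p = 0.655) and transgenic minus WT 0.21 ± 0.45 (limma adjusted p = 0.784). The macrophage markers, 10 of 10 above 0 in all libraries, summed to 383 to 535 RPKM in transgenic, 642, 1167 and 765 in LXR DKO and 530, 579 and 1257 RPKM in WT. WT 3 had the highest macrophage sum and the lowest Ereg level, while LXR DKO 2 had the next highest sum and the highest Ereg level. The 6 neutrophil markers summed to 7.84 to 15.6 RPKM in transgenic, 35.98, 31.8 and 48.7 in LXR DKO and 53.8, 75.8 and 17.9 RPKM in WT. Mmp9 alone gave 52.7 RPKM in WT 1 and 74.4 RPKM in WT 2. The neutrophil score was 0.722 to 0.995 in transgenic, 1.37, 2.14 and 1.83 in LXR DKO and 1.14, 1.28 and 1.30 in WT. It was thus highest in LXR DKO 2 and LXR DKO 3. Of these 6 markers only 3 were high enough to be tested. In WT 2, 3 were at 0, as were 2 in WT 1, 2 in transgenic 2 and 1 in transgenic 3. The part of macrophages and neutrophils in the Ereg values was not tested.

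Areg, Hbegf and Nrg1 were near or under 1 RPKM in every library. Areg encodes amphiregulin (ENSMUSG00000029378, chromosome 5, 91139599 to 91148432, plus strand). Its level was 0.906, 0.318 and 0.291 RPKM in transgenic, 0.569, 0.812 and 0.406 in LXR DKO and 0.523, 0.556 and 0.770 RPKM in WT, and the 3 genotypes overlapped. Those values rest on 12 to 51 reads, and 3 reads correspond to 0.0525 to 0.0794 RPKM. Without the filter, the log2 fold change of Areg was -0.12 ± 0.17 in transgenic against WT, -0.023 ± 0.17 in LXR DKO against WT and -0.10 ± 0.17 in transgenic against LXR DKO (limma adjusted p = 0.772, 0.999 and 0.939).

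Hbegf, on chromosome 18, encodes the heparin-binding ligand of EGFR and ERBB4 and measured 0.791, 0.718 and 0.882 RPKM in transgenic, 0.563, 0.453 and 0.244 in LXR DKO and 0.354, 0.512 and 1.25 RPKM in WT. Transgenic lay above LXR DKO without overlap, and WT spanned both. Nrg1, on chromosome 8, encodes neuregulin 1, a ligand of ERBB3 and ERBB4. It measured 0.0521, 0.0715 and 0.0513 RPKM in transgenic, 0.187, 0.136 and 0.0868 in LXR DKO and 0.125, 0.0522 and 0.0678 RPKM in WT, on 18 to 81 reads. The transgenic values were below those of LXR DKO without overlap. Among the tested genes, 18.3% did not overlap between transgenic and LXR DKO. That share includes neither Hbegf nor Nrg1, and none was worked out for genes this low. With no filter neither gene passed in any comparison (limma adjusted p of 0.645 to 0.831 for Hbegf and 0.454 to 0.731 for Nrg1).

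Btc supplied most of the summed RPKM of the 5 ligand genes, except in 2 LXR DKO libraries. These 5 leave out Tgfa, another ligand gene of the family, whose level was above that of Btc in every library. The Btc share of the 5 was 57.5%, 67.2% and 59.4% in transgenic, 63.0%, 40.0% and 48.0% in LXR DKO and 80.1%, 76.0% and 78.0% in WT. Ereg had 25.5%, 22.03% and 23.6% in transgenic, 23.2%, 52.7% and 45.5% in LXR DKO and 13.8%, 17.4% and 4.88% in WT. All WT shares of Btc were above, and all WT shares of Ereg below, those in the other libraries. The shares of a library depend on one another, and a lower Btc level alone raises the share of Ereg. The Ereg level itself, at 0.597 to 2.96 RPKM in WT, overlapped with that of transgenic and of LXR DKO. In LXR DKO 2 the Ereg level exceeded that of Btc. The sum itself was 10.3, 10.3 and 7.21 RPKM in transgenic, 9.55, 19.0 and 11.4 in LXR DKO and 16.3, 17.0 and 12.3 RPKM in WT.

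**Figure D2:**
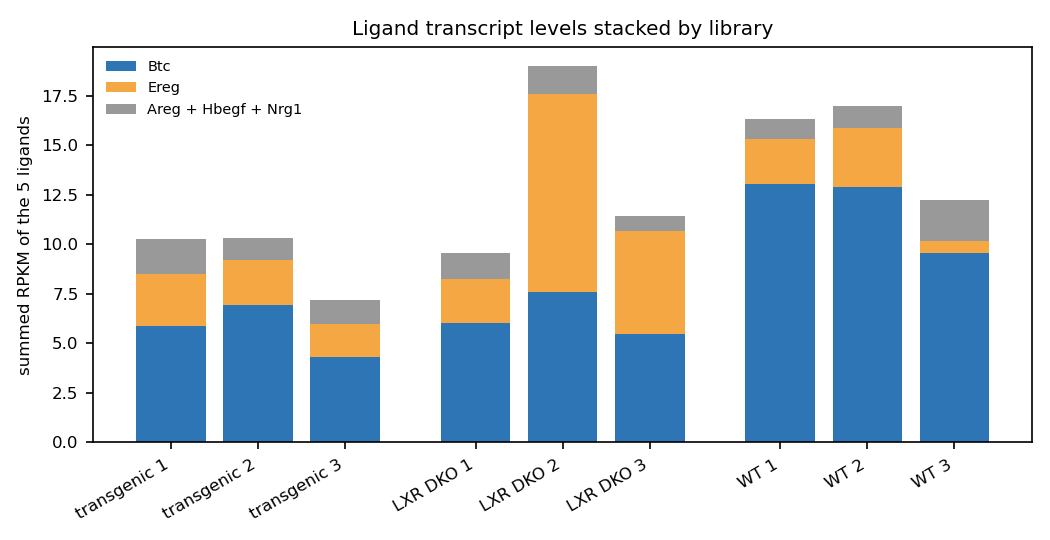
RPKM of Btc, Ereg and the sum of Areg, Hbegf and Nrg1, stacked for each library. Btc fills 76.0% to 80.1% of the WT bars, and in LXR DKO 2 Ereg fills 52.7% of the bar.

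Ereg, Areg and Btc lie in this order on chromosome 5. Areg starts 46.0 kb beyond the end of Ereg, and Btc lies 209 kb beyond Areg on the opposite strand. The ligand gene Epgn, 39.4 kb before Ereg and noted after its values were seen, measured 0.382, 0.320 and 0.294 RPKM in transgenic, 0.647, 1.46 and 0.513 in LXR DKO and 0.264, 0.344 and 0.118 RPKM in WT, and was not tested. Epgn and Ereg were both highest in LXR DKO 2 and lowest in WT 3. Parm1, the next gene beyond Btc at 115 kb, averaged 45.6 RPKM in transgenic, 47.8 in LXR DKO and 50.4 RPKM in WT and did not pass in any comparison. None of the 9 genes lies on the chromosomes of the deleted receptor genes.

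RefSeq promoter sequences were at hand for 5 of the 9 genes, namely Areg, Btc, Egfr, Erbb2 and Adam17. The 180 bases from 200 to 21 before the start are shown for Areg, whose cAMP response element (CRE) is a known site of its induction, and for Btc and Erbb2, the 2 genes of this group that passed in both comparisons with WT. Capitals mark TGACG, the core of the CRE, on either strand (GRCm38.p6).
Areg, chr5:91139399-91139578, plus strand: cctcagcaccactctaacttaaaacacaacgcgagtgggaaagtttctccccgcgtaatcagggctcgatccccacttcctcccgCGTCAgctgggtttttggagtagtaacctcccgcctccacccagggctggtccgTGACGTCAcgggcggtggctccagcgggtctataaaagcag
Btc, chr5:91403015-91403194, minus strand: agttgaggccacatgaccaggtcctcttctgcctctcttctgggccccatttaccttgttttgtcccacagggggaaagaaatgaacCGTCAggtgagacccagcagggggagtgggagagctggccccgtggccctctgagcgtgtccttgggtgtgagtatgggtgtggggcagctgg
Erbb2, chr11:98412284-98412463, plus strand: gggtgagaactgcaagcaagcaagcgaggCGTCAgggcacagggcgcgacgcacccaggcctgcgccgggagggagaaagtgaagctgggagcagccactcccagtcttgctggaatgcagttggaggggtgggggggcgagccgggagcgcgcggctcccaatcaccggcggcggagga

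The full CRE, TGACGTCA, consists of overlapping cores on both strands and occurs in the Areg window, 61 bases before the start (position -61). It was found in 1 of the 5 promoters and in 1.21% of all 32851 promoter windows of this length. The core TGACG was found in 3 of 5 (Areg, Btc and Erbb2) and in 13.7% of all windows. Neither AGGTCA, a hexamer that nuclear receptors bind, nor its direct repeat with 4 bases between the copies, the kind LXR binds, was found in any of the 5, on either strand, against 10.4% and 0.0152% of all windows. Areg, the gene with the full CRE, stayed under 1 RPKM in every library.

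Among the receptors, Erbb2 had the highest level in every library. Erbb2 (ENSMUSG00000062312, chromosome 11, 98412470 to 98437716, plus strand) measured 12.6, 13.7 and 14.7 RPKM in transgenic, 11.9, 10.5 and 10.8 in LXR DKO and 8.54, 8.16 and 9.12 RPKM in WT. The 3 genotypes did not overlap. The means were 13.7 ± 1.05 RPKM in transgenic, 11.1 ± 0.708 in LXR DKO and 8.61 ± 0.488 in WT (SD, n = 3 each). Erbb2 rose by 0.61 ± 0.088 in transgenic against WT (limma adjusted p = 0.00504), and by 0.33 ± 0.088 in LXR DKO against WT (limma adjusted p = 0.0471). Transgenic minus LXR DKO was 0.28 ± 0.088 and did not pass (limma adjusted p = 0.409). The call in transgenic against WT held in each omission of 1 library (limma adjusted p = 0.00324 to 0.0256). The call in LXR DKO was lost in every omission but that of WT 3 (limma adjusted p = 0.0408 to 0.126). It was also lost with no filter (0.0726), with the 2 genotypes alone (0.102) and without both WT 1 and LXR DKO 1 (0.170), all in limma. The log2 fold change stayed between 0.28 and 0.37. Erbb2 shares 9 bases with Mien1 on the opposite strand, which did not pass in any comparison.

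Levels of Erbb3 (ENSMUSG00000018166, chromosome 10, 128567523 to 128589652, on the minus strand) were 4.41, 4.37 and 5.43 RPKM in transgenic, 2.51, 2.97 and 2.97 in LXR DKO and 2.28, 1.99 and 2.22 RPKM in WT. Again the 3 genotypes did not overlap, and the gap was widest between transgenic and LXR DKO. The means were 4.74 ± 0.602 RPKM in transgenic, 2.82 ± 0.263 in LXR DKO and 2.17 ± 0.153 in WT (SD, n = 3 each), a ratio of 2.19 between transgenic and WT. Erbb3 rose by 0.85 ± 0.11 in transgenic against WT (limma adjusted p = 0.00303), a call that held in each omission of 1 library (0.00307 to 0.0167). Transgenic minus LXR DKO was 0.59 ± 0.11 (limma adjusted p = 0.131), a difference that passed only with estimated library weights (adjusted p = 0.0451), and LXR DKO minus WT was 0.27 ± 0.11 (adjusted p = 0.161). Among the tested genes, groups without overlap were seen for 28.9% in LXR DKO against WT, 18.3% in transgenic against LXR DKO and 35.7% in transgenic against WT. The 6 genes had 4, 3 and 3 such cases.

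**Figure D3:**
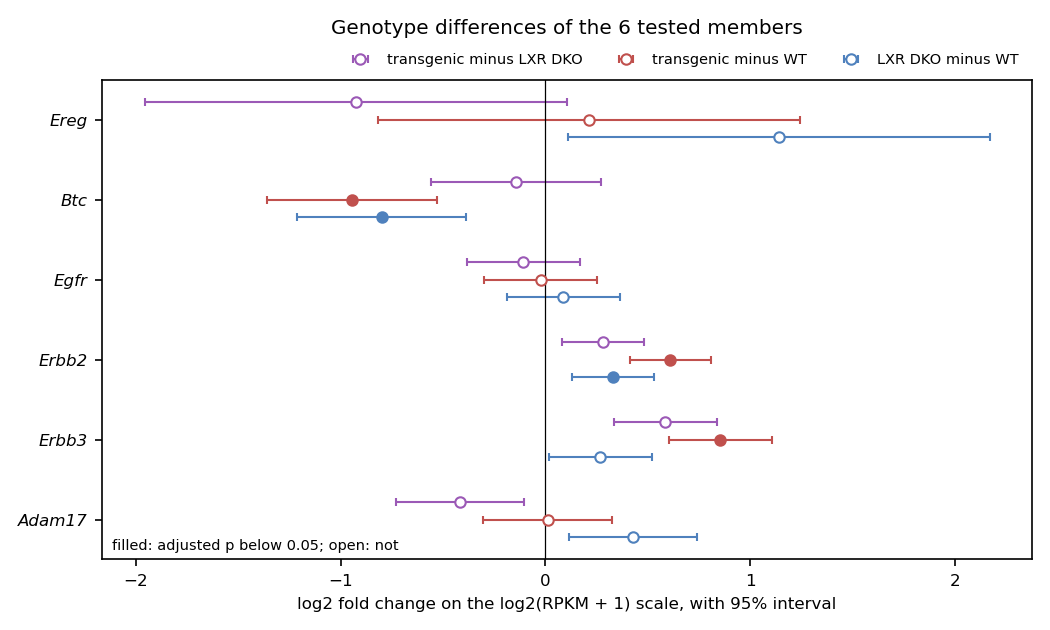
Log2 fold change on the log2(RPKM + 1) scale with its 95% interval for the 6 tested genes in 3 comparisons. Filled points passed the threshold: Btc at -0.95 and -0.80, Erbb2 at 0.61 and 0.33 and Erbb3 at 0.85, all against WT.

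Erbb2 and Erbb3 are also expressed in epithelia, and epithelial markers differed between the libraries. The 12 markers summed to 1922 to 2542 RPKM in transgenic, 609 to 1154 in LXR DKO, and 456, 402 and 2206 RPKM in WT 1 to 3, with none at 0. All 12 had positive log2 fold changes in transgenic against WT, of which Cdh1, the E-cadherin gene, passed (limma adjusted p = 0.0466). Of all tested genes, 5.15% rose in that comparison. Epcam, an epithelial adhesion gene, measured 34.2, 30.2 and 31.9 RPKM in transgenic, 8.20, 15.8 and 10.4 in LXR DKO and 2.99, 3.98 and 31.9 RPKM in WT. In WT 3, 5 of the 12 markers were above every transgenic library, 5 were within the transgenic range, and Cdh1 (17.6 RPKM) and Ovgp1 (1125 RPKM), an oviduct glycoprotein gene, were below it. The Erbb3 level of WT 3 was 2.22 RPKM, between those of WT 1 and WT 2, and its Erbb2 level of 9.12 RPKM was the highest of WT and under every transgenic and LXR DKO library. Without WT 3 the log2 fold changes of transgenic against WT were 0.65 for Erbb2 and 0.87 for Erbb3. The part of epithelial cells in the Erbb2 and Erbb3 values was not tested.

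**Figure D4:**
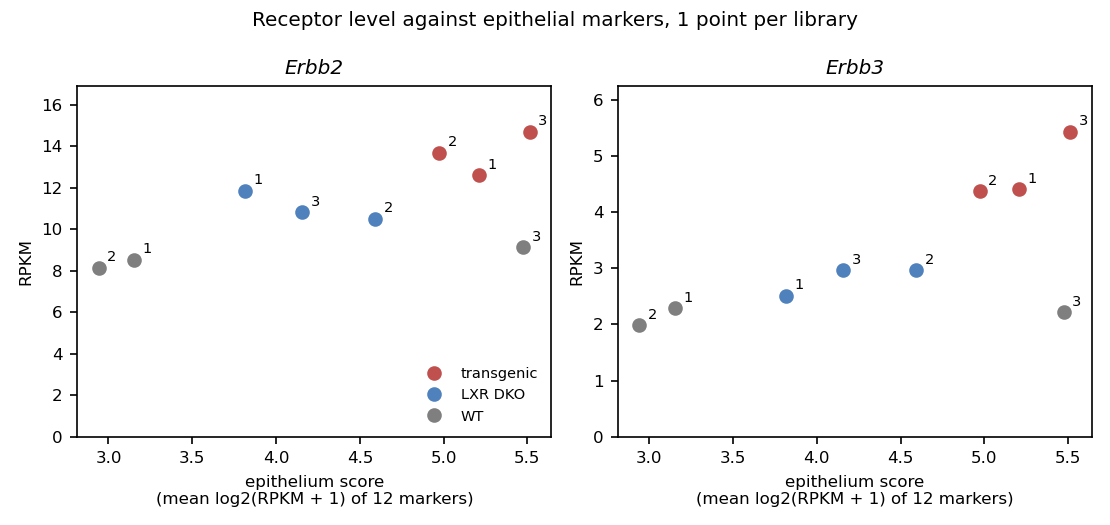
RPKM of Erbb2 and Erbb3 against the epithelium score, with 1 numbered point per library. WT 3 has a score of 5.47, within the transgenic range, and Erbb3 at 2.22 RPKM beside the other WT libraries.

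Egfr (ENSMUSG00000020122, chromosome 11, 16752203 to 16918158, plus strand) measured 3.98, 4.56 and 4.19 RPKM in transgenic, 4.11, 4.93 and 4.94 in LXR DKO and 4.48, 4.98 and 3.59 RPKM in WT. The genotypes overlapped throughout. Its log2 fold change was -0.023 in transgenic against WT (95% interval -0.30 to 0.25, limma adjusted p = 0.916), 0.086 in LXR DKO against WT (-0.19 to 0.36, 0.708) and -0.11 in transgenic against LXR DKO (-0.38 to 0.17, 0.870). The sign of the first turned without transgenic 1 or WT 2, and that of the second without WT 3.

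Read per length, the order of the receptor levels differed between genotypes at the lower ranks. The ratio of Erbb2 to Egfr was 3.17, 3.01 and 3.51 in transgenic, 2.89, 2.13 and 2.19 in LXR DKO and 1.91, 1.64 and 2.54 in WT. LXR DKO and WT overlapped in this ratio, and transgenic lay above both. The ratio of Erbb3 to Egfr was 1.11, 0.960 and 1.30 in transgenic, 0.612, 0.601 and 0.602 in LXR DKO and 0.510, 0.400 and 0.618 in WT. Thus Egfr was above Erbb3 in all LXR DKO and WT libraries, and the 2 were close in transgenic. Erbb4, the fourth receptor gene, was at 0.0469 RPKM or less in every library and was not tested.

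Of the 9 genes, Adam17 (ENSMUSG00000052593, chromosome 12, 21323509 to 21373632, minus strand) had the highest level throughout. Its values were 30.5, 31.5 and 30.8 RPKM in transgenic, 39.4, 38.4 and 47.6 in LXR DKO and 35.6, 33.0 and 24.6 RPKM in WT. The LXR DKO libraries lay above all others, and transgenic and WT overlapped. Neither LXR DKO minus WT (0.43 ± 0.14, limma adjusted p = 0.0854) nor transgenic minus LXR DKO (-0.42 ± 0.14, limma adjusted p = 0.459) passed, and transgenic minus WT was 0.0099 ± 0.14 (limma adjusted p = 0.968). Its neighbour Iah1, on the opposite strand, overlaps Adam17 by 311 bases. Iah1 averaged 13.7 RPKM in transgenic, 23.1 in LXR DKO and 13.8 RPKM in WT. It passed in transgenic against LXR DKO (-0.71, limma adjusted p = 0.0344) and in LXR DKO against WT (0.71, limma adjusted p = 0.00276). The strand setting of the counting is not stated in the sources used here, so reads in the shared bases cannot be told apart. Further genes passed in transgenic against LXR DKO between 18648214 and 30017658 on chromosome 12, a stretch that holds Adam17. Zfp125, Pxdn and ENSMUSG00000116815 fell and Gm9259 rose (limma adjusted p = 0.00133, 0.0101, 0.0428 and 0.0438). The ends of the stretch are those of ENSMUSG00000116815 and Pxdn. Outside it, Sptb, Gm16381, Gm2001 and Adck1 on the same chromosome, between 76580488 and 88461724, also passed and rose. The part of the stretch around Adam17 in the Adam17 values was not tested.

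Of 6 other ligand genes of the family, only Tgfa, the transforming growth factor alpha gene, was tested. It measured 15.3, 14.0 and 14.6 RPKM in transgenic, 11.8, 14.1 and 16.8 in LXR DKO and 14.7, 14.99 and 10.9 RPKM in WT. Its level was above that of Btc in all 9 libraries, and it did not pass in any comparison. None of the 3 tested genes of a list of Erbb4 and co-receptor genes, 5 in all, passed, Cd9 having the highest level. Of 8 tested further sheddase and sheddase-control genes, none passed in LXR DKO against WT or in transgenic against LXR DKO. In transgenic against WT 1 rose, where 5.15% of all tested genes rose. It was Adam8, a metalloprotease gene, at 25.6, 10.5 and 14.8 RPKM in transgenic, 8.28, 9.54 and 5.30 in LXR DKO and 3.57, 3.15 and 8.84 RPKM in WT (1.56 ± 0.39 in transgenic against WT, limma adjusted p = 0.0377). That call was lost without transgenic 1, transgenic 3, LXR DKO 2, WT 1 or WT 2 (adjusted p up to 0.112).

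Of 18 tested genes of ERBB signalling inhibitors, 13 did not pass in transgenic or LXR DKO against WT. In LXR DKO 3 rose and 2 fell, where 3.47% of all tested genes rose and 7.12% fell. The same 5 genes passed in the same directions in transgenic against WT, which has the same WT libraries, where 5.15% of all tested genes rose and 6.72% fell. None of the 18 passed in transgenic against LXR DKO. The medians of the list were 0.10, 0.030 and -0.043 for LXR DKO against WT, transgenic against WT and transgenic against LXR DKO. Lrig1, a membrane protein gene whose product promotes the breakdown of ERBB receptors, measured 40.5, 42.7 and 46.2 RPKM in transgenic, 41.9, 41.8 and 43.6 in LXR DKO and 24.6, 22.6 and 18.0 RPKM in WT. It rose by 0.97 ± 0.11 in transgenic and by 0.95 ± 0.11 in LXR DKO against WT (limma adjusted p = 0.00175 and 0.00198). Both calls of Lrig1 held in all 9 omissions of 1 library (adjusted p up to 0.0132).

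Dusp6, the gene of a phosphatase that switches off ERK, measured 80.4, 101 and 80.9 RPKM in transgenic, 70.0, 65.9 and 62.6 in LXR DKO and 151, 162 and 124 RPKM in WT. It fell by 0.72 ± 0.13 on the log2 scale in transgenic and by 1.12 ± 0.13 in LXR DKO against WT (limma adjusted p = 0.0109 and 0.00156), in all 9 omissions (adjusted p up to 0.0482). Dusp4, a related phosphatase gene, measured 7.07, 9.43 and 6.40 RPKM in transgenic, 7.48, 7.30 and 6.49 in LXR DKO and 13.7, 11.7 and 11.6 RPKM in WT, and fell in both (limma adjusted p = 0.0211 and 0.0134). For both phosphatase genes the WT libraries were above all transgenic and LXR DKO libraries. Groups without overlap were seen for 35.7% of all tested genes in transgenic against WT and 28.9% in LXR DKO against WT. The Dusp4 call in transgenic was lost without transgenic 1, transgenic 3, WT 1 or WT 2 and that in LXR DKO without LXR DKO 3 (highest adjusted p 0.0749 and 0.0612).

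Spry2, an inhibitor of receptor tyrosine kinase signalling, measured 6.01, 5.78 and 4.89 RPKM in transgenic, 5.80, 8.43 and 6.01 in LXR DKO and 2.69, 4.05 and 1.64 RPKM in WT. It rose in both (0.84 ± 0.23 in transgenic and 1.06 ± 0.23 in LXR DKO against WT, limma adjusted p = 0.0476 and 0.0218). The transgenic call of Spry2 held only without WT 2 among the omissions, and that in LXR DKO did not survive the omission of WT 1, LXR DKO 2 or LXR DKO 3 (highest adjusted p 0.137 and 0.0768). Socs5, of the suppressor of cytokine signalling family, rose by 0.37 ± 0.10 in transgenic and by 0.40 ± 0.10 in LXR DKO against WT (limma adjusted p = 0.0469 and 0.0384). Both calls of Socs5 were lost in every omission but that of LXR DKO 1 (adjusted p up to 0.139 and 0.138).

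**Figure D5:**
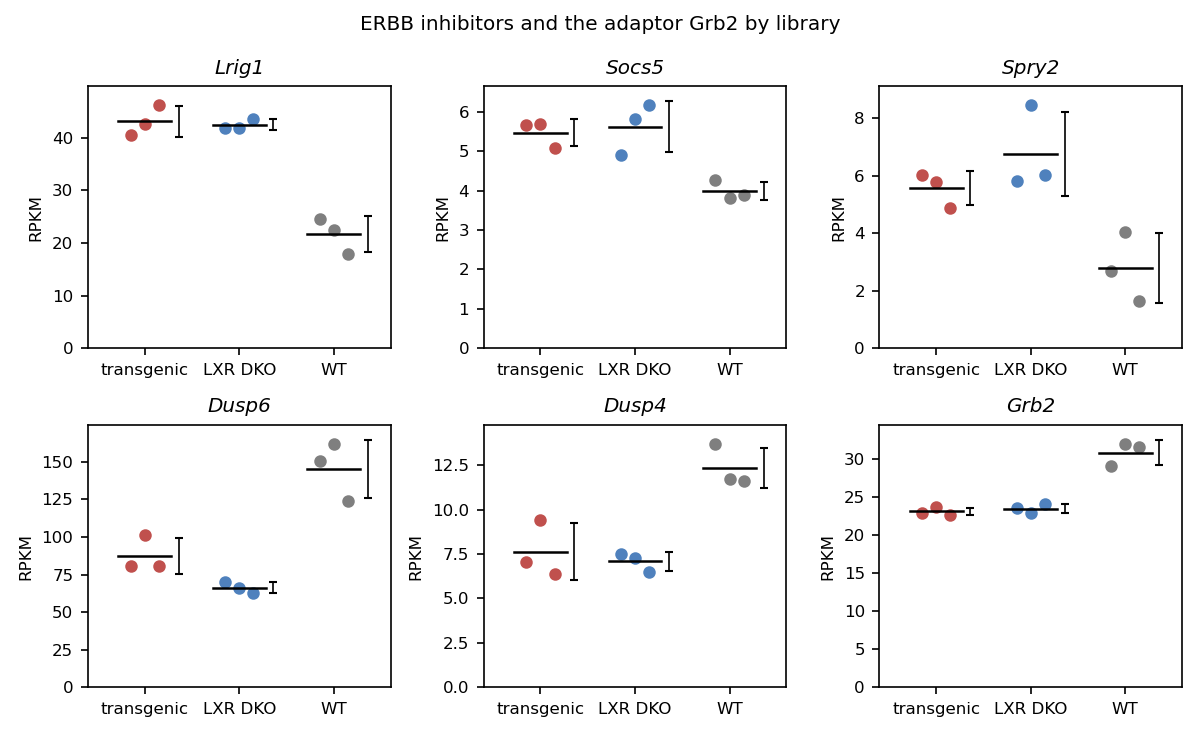
RPKM of 5 genes of ERBB inhibitors and of the adaptor Grb2 in each library (points), with the genotype mean (line) and SD (bar) of 3 libraries. Lrig1, Socs5 and Spry2 are higher, and Dusp6, Dusp4 and Grb2 lower, in all transgenic and LXR DKO libraries than in WT. The genes shown are those of their lists that passed in both comparisons with WT, so their separation follows from that choice. Of all tested genes, 28.9% did not overlap between LXR DKO and WT, and 35.7% did not between transgenic and WT.

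Of 16 tested adaptor and RAS-ERK cascade genes, 1 fell in LXR DKO against WT and 1 fell and 1 rose in transgenic against WT, with none in transgenic against LXR DKO. Of all tested genes, 3.47% rose and 7.12% fell in LXR DKO against WT. In transgenic against WT, 5.15% rose and 6.72% fell. Grb2, the adaptor that couples receptors to RAS, measured 22.9, 23.6 and 22.7 RPKM in transgenic, 23.5, 22.8 and 24.0 in LXR DKO and 29.0, 31.9 and 31.6 RPKM in WT. It fell by 0.40 ± 0.069 in transgenic and by 0.38 ± 0.069 in LXR DKO (limma adjusted p = 0.0103 and 0.0119), in all 9 omissions. Shc1, another adaptor gene, rose by 0.27 ± 0.071 in transgenic against WT (limma adjusted p = 0.0436), a call kept only without LXR DKO 1 or WT 3 among the omissions (adjusted p up to 0.132). Of 9 tested genes known to follow ERK activity, Spry2 rose and Dusp6 and Dusp4 fell in both comparisons with WT, and the others did not pass. Spry2, Dusp6 and Dusp4 are also inhibitor genes counted above. The shares of all tested genes are those given for the adaptor list.

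Of 4 matrix genes that EGFR signalling induces in cumulus cells, Tnfaip6 and Ptx3 fell in both transgenic and LXR DKO against WT, where 6.72% and 7.12% of all tested genes fell. Ptgs2, the prostaglandin synthase gene, did not pass in any comparison, and Has2 entered the test only through its WT libraries. Ptx3, a pentraxin gene of the matrix, measured 5.29, 7.46 and 4.53 RPKM in transgenic, 6.52, 7.11 and 4.31 in LXR DKO and 10.8, 15.3 and 10.1 RPKM in WT (-0.95 ± 0.22 in transgenic and -0.91 ± 0.22 in LXR DKO, limma adjusted p = 0.0298 and 0.0356). The Ptx3 call in transgenic was lost without transgenic 1, transgenic 3, WT 1 or WT 2 and that in LXR DKO without transgenic 1, WT 1, WT 2 or any LXR DKO library (adjusted p up to 0.104 and 0.120). Has2, the hyaluronan synthase gene, measured 0.504, 0.706 and 0.563 RPKM in transgenic, 0.839, 0.698 and 0.807 in LXR DKO and 1.16, 2.79 and 1.36 RPKM in WT. It reached 1 RPKM in the WT libraries alone, so its test is not counted here, and with no filter transgenic against WT did not pass (limma adjusted p = 0.105). Tnfaip6, which encodes a hyaluronan-linking protein, fell by 1.52 ± 0.17 in transgenic and by 1.89 ± 0.17 in LXR DKO (limma adjusted p = 0.00134 and 0.000396), in all 9 omissions. The granulosa markers were also lower in sum, at 389 to 449 RPKM in transgenic and 323 to 551 RPKM in LXR DKO, against 570 to 626 RPKM in WT. By score, LXR DKO 1 (4.29) lay above WT 3 (4.08). Of the 8 tested markers, 3 had positive log2 fold changes in each comparison with WT. The part of granulosa cells in the falls of Tnfaip6 and Ptx3 was not tested.

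Genes whose log2(RPKM + 1) followed that of the called members most closely over the 9 libraries were found by Pearson correlation, as a description over libraries that share genotype and cell content. For Btc they were Ankrd12 (r = 0.98) and Eif2s2 (r = 0.98), for Erbb2 Capn5 (r = 0.97) and A930005H10Rik (r = 0.97), and for Erbb3 Ptprf (r = 0.98) and Atp8b1 (r = 0.97). They are the highest values among all 16422 tested genes. For the tested members that did not pass, the highest r was similar, at 0.97 for Egfr and Ereg and 0.96 for Adam17.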

How the data were processed

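The authors deposited 1 matrix of RPKM values, 1 column per library. The submitters' processing notes name mm10, DESeq2 1.2.8, HTSeq 0.5.4p5, HISAT2 2.1.0 and cutadapt without roles. Columns were assigned by name. Those of transgenic differ from the descriptions in 1 letter and were matched by TG and replicate number. Annotation release, strand setting and handling of multiply mapped reads are not stated in the sources used here.

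Values were tested as log2(RPKM + 1) in limma 3.58.1 (R 4.3.3), with all 9 libraries, genotype alone as a factor and empirical Bayes variances with a trend, for genes with at least 1 RPKM in at least 3 libraries (16422 genes). The pseudocount understates changes of low genes. The fit was tested on simulated data. With exon lengths of GENCODE M21, values were whole reads to within 0.02 in all libraries for 98.1% of the 37863 genes above 0. No 2 replicates were the same library (lowest chi-square per degree of freedom 18.3). The 9 genes are all named, the gene lists were named by their called genes (up to 3 per direction, or the most abundant gene where none passed), and both were chosen with earlier results of these data known.

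In alternatives, 18 settings were varied. One more, voom on the reads worked back, was chosen after seeing the data. The labels do not say whether the replicate numbers pair the libraries, and the reported fit had no replicate block.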

Additional observations from a re-analysis of the deposited data

How the results depend on the processing

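The number of members that passed in transgenic against WT was 3 or 2 in every alternative. In LXR DKO against WT, 2 passed, but 0 with no filter and without WT 1 and LXR DKO 1, and 1 with only the 2 genotypes compared and with voom on the reads worked back. Over omissions of 1 library it was 0 to 2. In transgenic against LXR DKO, 0 passed, but 1 with library weights (Erbb3). With the replicate block, 1 passed in LXR DKO against WT (Btc, not Erbb2, adjusted p = 0.0882 in limma), 0 in transgenic against LXR DKO and 3 in transgenic against WT. The block also ended both Socs5 calls (adjusted p = 0.0882 in transgenic and 0.0857 in LXR DKO), and those of Adam8 (0.0600) and Shc1 (0.0823) in transgenic against WT, all in limma. Correlations of deviations ran from -0.29 to 0.67 between same-numbered libraries of different genotypes and from -0.55 to 0.53 between differently numbered ones. The highest was that of LXR DKO 1 with WT 1. These ranges overlap and cannot settle whether the replicate numbers pair the libraries.

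Signs turned for differences that did not pass. Over omissions of 1 library, log2 fold changes ran from -0.020 (without WT 3) to 0.17 for Egfr in LXR DKO against WT and from -0.28 to 0.017 (without transgenic 3) for Btc in transgenic against LXR DKO. In transgenic against WT they ran from -0.18 (without WT 3) to 0.48 for Ereg, from -0.13 to 0.062 (without WT 2; 0.013 without transgenic 1) for Egfr and from -0.14 (without WT 3; -0.0023 without transgenic 2) to 0.11 for Adam17. With library weights, Ereg was -0.0065 and Adam17 -0.11 there. The causes were not tested. The count of all genes passing was 606 to 2823 (1739 in the reported fit) in LXR DKO against WT, 4 to 159 (19) in transgenic against LXR DKO and 641 to 4431 (1949) in transgenic against WT. Depth limits Areg and Nrg1, which rest on 12 to 81 reads. Among the other pathway genes, the calls of Lrig1, Dusp6, Grb2 and Tnfaip6 held in every alternative run. With no filter, Spry2, Socs5 and Ptx3 did not pass in transgenic (adjusted p = 0.111, 0.0829 and 0.0751) or LXR DKO (0.0622, 0.0713 and 0.0928) against WT, nor Adam8 in transgenic (0.0965), all in limma.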
